A study of Homo sapiens with 6 samples.

Results

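The signal recognition particle (SRP) and abundant transcripts of RNA polymerase III (Pol III) were described here in HT1080 cells through 10 gene names. They were the RNAs RN7SL1, RN7SL2, RN7SK, RMRP and RPPH1 and the mRNAs of the SRP proteins SRP9, SRP14, SRP19, SRP54 and SRP68. Rows of the deposited count table were taken where the gene name equalled 1 of these names, which gave 13 of 60675 rows, 8 for the RNAs and 5 for the proteins. The members were selected on the measured abundance of these RNAs in the same libraries, and the difference in RN7SL1 and RN7SL2 between the compounds was known at that point. Levels and differences of the RN7SL RNAs are therefore given as a description and without a test.

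HT1080 is an established human fibrosarcoma line, labelled wild type. Cultures received SW-113 or SW-138, 2 compounds known here only by code names from a study of inhibitors of the lysine deacetylase KDAC6 (HDAC6), each at 1 µM for 48 h. Total RNA from frozen pellets was depleted of ribosomal RNA and sequenced in 3 libraries per compound, 6 in all. No vehicle group was analysed here, so SW-138 is always read against SW-113 ("lower" and "higher" refer to SW-138), and a level raised by one compound cannot be told apart from a level lowered by the other.

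SRP is a ribonucleoprotein that binds the signal sequence of a nascent secretory or membrane protein at the ribosome, slows elongation and delivers the ribosome to its receptor on the endoplasmic reticulum. The 7SL RNA, made by Pol III from RN7SL1 and its near-identical copies, is the scaffold of the particle. 7SK RNA (RN7SK) holds the elongation kinase P-TEFb in an inactive complex, RPPH1 is the catalytic RNA of RNase P, which trims the 5′ ends of precursor tRNAs, and RMRP is the RNA of RNase MRP, which takes part in ribosomal RNA processing.

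RN7SL1 and RN7SL2 differ at so few bases that many reads cannot be assigned to 1 of them, so how alike the copies of 7SL are is given before their values. All coordinates are GRCh38, with names and transcripts from GENCODE release 29. RN7SL1 lies at chr14:49586580-49586878 on the plus strand (299 bases), RN7SL2 at chr14:49862550-49862849 on the minus strand (300 bases) and RN7SL3 at chr14:49853616-49853914 on the minus strand (299 bases). RN7SL7P, at chr7:92971002-92971299 on the minus strand (298 bases), and RN7SL151P, at chr9:21699314-21699596 on the plus strand (283 bases), are pseudogenes and the other copies with a mean above 1 CPM (counts per 1000000).

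RN7SL2 matched RN7SL1 at 295 of 299 aligned bases (98.7%) and RN7SL3 at 292 of 299 (97.7%). RN7SL7P had 87.6% identity with RN7SL1 and RN7SL151P 82.5%. Of the 150 windows of 150 bases in RN7SL1, the read length named in the labels, 56 (37.3%) were found letter for letter in RN7SL2 and 0 in RN7SL3, RN7SL7P or RN7SL151P. The other 94 (62.7%) were found in none of these copies.

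Names in the table did not follow the copies. The row named RN7SL2 (ENSG00000280102) was listed at 0 in all 6 libraries and was not found in GENCODE 29. The row that GENCODE 29 names RN7SL2 (ENSG00000274012) is called Metazoa_SRP in the table, as are 222 rows in all, and held 510868 to 1363036 counts per library. It is described below as RN7SL2. RN7SL3 (ENSG00000278771) also stood under Metazoa_SRP. RN7SL1, RMRP and RPPH1 each had a second row with the same name whose gene model spans the first. The second RN7SL1 row (ENSG00000283029, 300 bases) contains the whole of RN7SL1. The second RPPH1 row (ENSG00000259001, 638 bases, chr14:20343048-20343685, minus strand) adds 278 bases before and 27 after the RNA, and overlaps PARP2 on the other strand by 104 bases. The second RMRP row is shown with capitals at the 1 base before and 3 bases after RMRP that it adds (chr9:35657751-35658018, minus strand, 268 bases).
RMRP, longer row: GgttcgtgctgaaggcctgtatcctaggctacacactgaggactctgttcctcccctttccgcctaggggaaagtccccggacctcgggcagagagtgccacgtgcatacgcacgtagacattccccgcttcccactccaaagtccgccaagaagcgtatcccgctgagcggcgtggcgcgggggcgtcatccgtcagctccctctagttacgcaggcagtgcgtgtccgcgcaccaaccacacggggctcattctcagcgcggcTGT

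RSEM, named in the submitters' processing notes, divides reads that fit several transcripts among them, so the division between these rows is an estimate, and sums over a locus or family are given beside single rows. RN7SL1 lies within the span of RPS29 on the opposite strand, and the strand setting of the counting is not given in the sources used here.

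Libraries held 32771670 to 50871623 counts. The 10 mesenchymal markers summed to 7113 to 8037 CPM with SW-113 and 7520 to 8805 CPM with SW-138, with 7 of 10 at 1 CPM or more in every library, VIM among them at 3329 to 3861 CPM. THY1, NT5E and S100A4 were near 0. Of the markers of other cell types, KRT18 was at 218 to 251 CPM, EPCAM, CDH1, KRT5, the 4 blood markers and the 3 endothelial markers were at or near 0, and their part in the results was not tested. On component 1 of a principal component analysis, with 31.4% of the variance, SW-138 replicate 2 lay farthest out, at 41.56. SW-138 replicates 1 and 3 lay at 3.66 and 6.49, and SW-113 replicates 1, 2 and 3 at -15.13, -10.36 and -26.22. Component 1 thus also set the compounds apart. Whether replicates came from separate cultures is not in the labels, and a p-value here therefore rests on a spread that may be technical. In bulk RNA, fewer cells of a kind and less RNA per cell cannot be told apart.

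Between 7.22% and 12.4% of all counts of a library fell on the 4 RNA families 7SL, 7SK, RPPH1 and RMRP. The share was 11.8%, 12.4% and 10.96% in SW-113 replicates 1, 2 and 3, and 7.22%, 9.32% and 9.81% in SW-138 replicates 1, 2 and 3. Per kilobase of transcript, the mean over 6 libraries was 112224 CPM per kb for RN7SL1, 96350 for RN7SK, 69027 for RN7SL2, 35128 for RPPH1 and 16811 for RMRP. The ranges over libraries of RN7SL1 (69570 to 150654 CPM per kb) and RN7SK (75385 to 108565) overlapped, as did those of RN7SK and RN7SL2 (40829 to 91618) and of RN7SL2 and RPPH1 (26227 to 41741). The range of RMRP (11503 to 19994) lay below that of RPPH1. Within every library, however, RN7SK was above RN7SL2, RN7SL2 above RPPH1 and RPPH1 above RMRP on this scale. SRP9, the highest of the SRP mRNAs on this scale, stood at 96.0 CPM per kb.

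The 7SL RNA was lower in every SW-138 library than in every SW-113 library. RN7SL1 took 4.21%, 4.39% and 3.72% of counts in SW-113 replicates 1 to 3 and 2.14%, 2.66% and 2.88% in SW-138. The groups did not overlap, and SW-138 replicate 1 was the lowest. The means were 4.11% ± 0.349 (SD, n = 3) and 2.56% ± 0.379. On the scale of CPM with TMM-scaled library totals, the log2 difference was -0.74 ± 0.10 (SE), a level 1.67-fold lower. Over the alternatives run, it lay between -0.85 and -0.63. RN7SL1 has 299 bases. Among tested protein-coding genes with transcripts of 207 to 1467 bases, 252 were lower and 12 higher, at a median log2 difference of -0.16. The length trend was removed in protein-coding genes only, so RN7SL1 and the other Pol III RNAs were not in that fit. A part of length in their differences was not tested.

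Each of 4 other copies of 7SL was lower too. RN7SL2 took 2.65%, 2.68% and 2.33% of counts with SW-113 and 1.26%, 1.68% and 1.74% with SW-138, a log2 difference of -0.77 ± 0.11 (SE) and a level 1.71-fold lower. RN7SL3, at 393, 379 and 342 CPM with SW-113 and 164, 206 and 234 CPM with SW-138, gave -0.89 ± 0.11. RN7SL7P went from a mean of 16.3 ± 0.685 CPM to 8.79 ± 1.95 (SD, n = 3), a log2 difference of -0.89 ± 0.13 (SE). RN7SL151P held 233, 248 and 170 counts with SW-113 and 90, 85 and 104 with SW-138, each a whole number, and gave -1.02 ± 0.18. In these 4 rows, too, every SW-113 library was above every SW-138 library. The second RN7SL1 row overlapped between groups (21.6, 37.9 and 26.4 CPM against 18.0, 21.6 and 29.3), with a log2 difference of -0.33 ± 0.21.

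The sum over the 909 rows named as 7SL copies does not depend on how reads were divided among them. It was 6.91%, 7.11% and 6.08% of counts with SW-113 and 3.42%, 4.37% and 4.64% with SW-138, and the means of 6.70% ± 0.545 and 4.15% ± 0.641 (SD, n = 3) stood at a ratio of 0.618. A fit of the summed counts gave -0.76 ± 0.11 (SE). RN7SL1, RN7SL2 and RN7SL3 held 99.96% of the sum, and the 905 rows outside them went from 0.00258% to 0.0016% of counts, a ratio of 0.619.

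**Figure D1:**
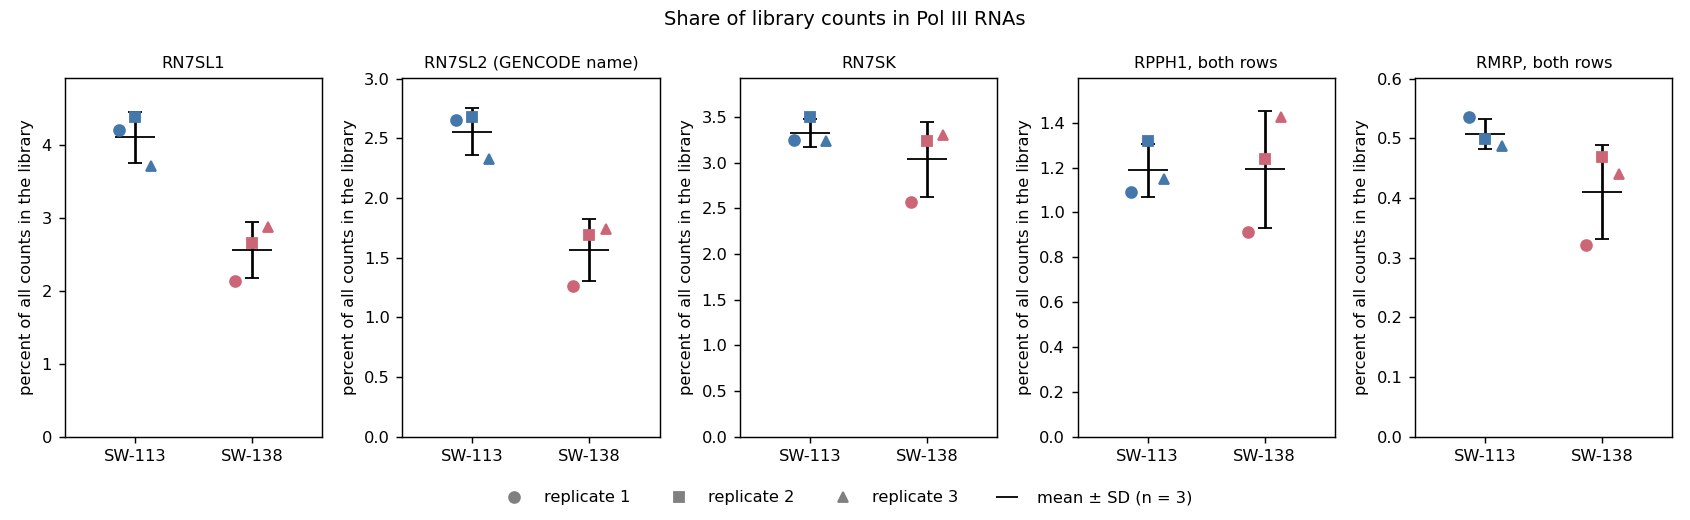
Percent of all counts in the library (vertical axes from 0) for RN7SL1, RN7SL2 by its GENCODE name, RN7SK, and RPPH1 and RMRP with both rows summed, for SW-113 (blue) and SW-138 (red). Each symbol is 1 library and the bars are the mean and SD of 3; the groups are apart for RN7SL1, RN7SL2 and RMRP and overlap for RN7SK and RPPH1.

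The copies were also set against each other within a library. RN7SL2 stood at 63.0, 61.0 and 62.6 counts per 100 of RN7SL1 with SW-113 and 58.9, 63.3 and 60.3 with SW-138, which overlapped. RN7SL3 stood at 0.915, 0.842 and 0.899 per 100 of RN7SL1 with SW-113 and 0.789, 0.797 and 0.815 with SW-138, which did not. RN7SL151P, at 1.41, 1.11 and 1.10 per 10000 of RN7SL1 against 1.04, 0.974 and 0.985, was also lower in each SW-138 library, while RN7SL7P overlapped, between 3.32 and 4.07 per 10000 in all 6.

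7SK RNA (ENSG00000202198, chr6:52995620-52995950, plus strand, 331 bases) showed a smaller difference that did not pass the test. It took 3.24%, 3.50% and 3.24% of counts with SW-113 and 2.57%, 3.24% and 3.30% with SW-138, so that 2 of the SW-138 libraries lay among the SW-113 libraries and SW-138 replicate 1 below them. In CPM with TMM-scaled totals the groups were just apart, at 33080, 35935 and 33130 against 24952, 31404 and 32850. On the log2 scale it differed by -0.20 ± 0.09 (SE, 95% interval -0.40 to 0.0042), which did not pass (adjusted p = 0.257, edgeR's quasi-likelihood test, Benjamini-Hochberg over 16905 genes). The row held nearly all of its family, and of the 8 tested rows among the 300 named as 7SK copies 0 passed in edgeR, 4 at an unadjusted p under 0.05, and 0 in DESeq2 or limma-voom. The pseudogenes RN7SKP124 (-0.51 ± 0.16, SE, adjusted p = 0.0865), RN7SKP80 (-0.34, adjusted p = 0.147) and RN7SKP25 (-0.41, adjusted p = 0.183) were each lower in every SW-138 library, at means under 6 CPM, and RN7SKP217 (-0.42, adjusted p = 0.427) overlapped. With a filter of 1 count in 1 library RN7SK (adjusted p = 0.00291) and RN7SKP124 (0.0237) passed, and RN7SKP124 also with the replicate block (0.0392). The log2 difference of RN7SK with that filter was still -0.20.

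RMRP (ENSG00000277027, chr9:35657754-35658017, minus strand, 264 bases) was lower in each SW-138 library but did not pass. Both rows together took 0.536%, 0.498% and 0.487% of counts with SW-113 and 0.321%, 0.469% and 0.440% with SW-138, again with SW-138 replicate 1 lowest. The main row gave -0.37 ± 0.11 (SE, 95% interval -0.63 to -0.12) and an adjusted p of 0.0837 by edgeR. Without SW-138 replicate 2 it was -0.47 and passed (adjusted p = 0.0147), as it did with the replicate block (-0.39, adjusted p = 0.00950) and with the filter of 1 count in 1 library (adjusted p = 2.74e-09). With that filter the log2 difference was -0.38, close to that of the main fit, and why the p-value fell was not tested. The longer row gave -0.29 ± 0.24, with an adjusted p of 0.503, and passed with that filter (0.000174). Neither row was in the fit with the length trend removed, so a part of length was not tested.

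RPPH1 (ENSG00000277209, chr14:20343075-20343407, minus strand, 333 bases) had a mean share of 1.16% ± 0.115 with SW-113 and 1.17% ± 0.252 with SW-138 (SD, n = 3). Both rows together took 1.09%, 1.32% and 1.15% of counts with SW-113 and 0.911%, 1.24% and 1.43% with SW-138, so the SW-138 libraries held both the lowest and the highest value. The main row gave -0.053 ± 0.14 (SE, 95% interval -0.36 to 0.26), and its adjusted p by edgeR was 0.858. The interval includes the difference measured for 7SK. Without SW-138 replicate 1, the library lowest in each of these RNAs, the log2 difference was 0.11.

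Ratios of 2 RNAs within a library do not depend on the scaling between libraries. The 7SL family stood at 2.13, 2.03 and 1.88 counts per count of RN7SK with SW-113 and 1.33, 1.35 and 1.41 with SW-138. The groups were apart, and the 3 SW-138 libraries, whose shares of each RNA differed widely, were close to each other on this ratio (mean 1.36 ± 0.0390, SD, n = 3, against 2.01 ± 0.126). RPPH1 per count of RN7SK ran from 0.337 to 0.377 with SW-113 and from 0.355 to 0.432 with SW-138, and RMRP from 0.142 to 0.165 and from 0.125 to 0.145. Both of these ratios overlapped between groups.

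**Figure D2:**
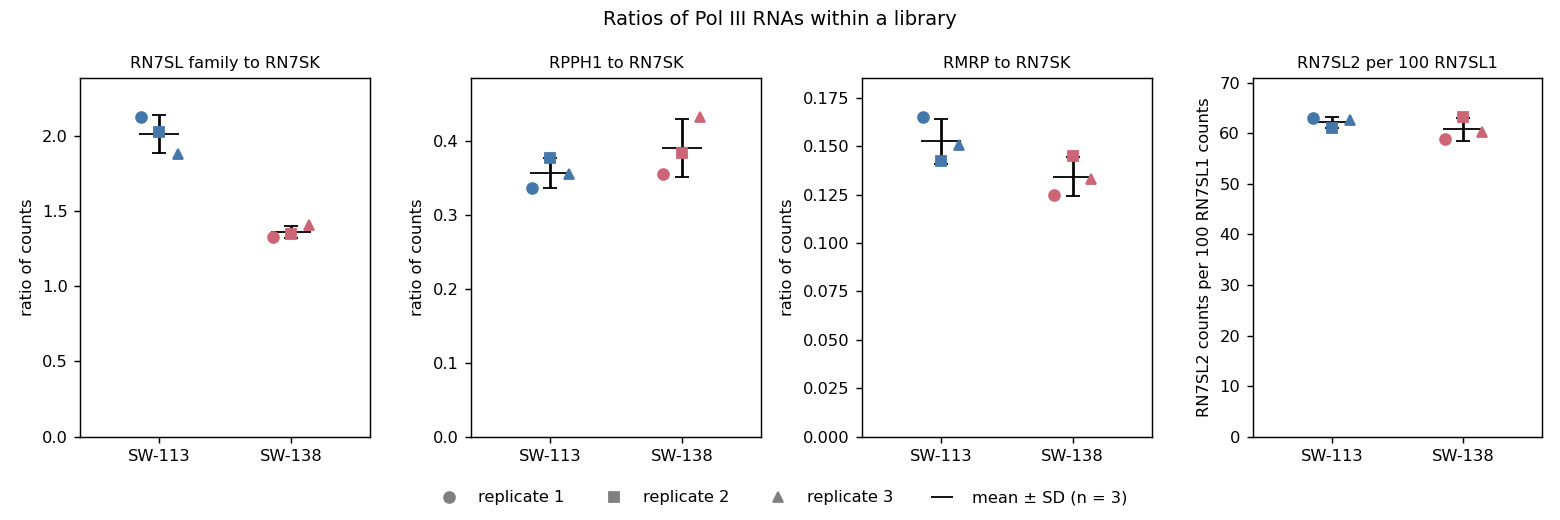
Counts of the 7SL family, RPPH1 and RMRP per count of RN7SK, and of RN7SL2 per 100 counts of RN7SL1, in each library (vertical axes from 0), with the mean and SD of 3 libraries per compound. The 7SL to 7SK ratio lies at 1.88 to 2.13 with SW-113 and 1.33 to 1.41 with SW-138, and the groups overlap in the other panels.

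Of the mRNAs of the 5 SRP proteins, SRP14 was lower by the test and the other 4 did not pass. SRP9 and SRP14 form the dimer on the Alu domain of 7SL that slows elongation. SRP9 (chr1:225777813-225790466, plus strand) stood at 149, 154 and 161 CPM with SW-113 and 156, 154 and 145 CPM with SW-138, which overlapped, with a log2 difference of -0.030 ± 0.050 (SE, 95% interval -0.14 to 0.082) and an adjusted p of 0.788 by edgeR.

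SRP14 (chr15:40035739-40039188, minus strand) fell by 14.2% in SW-138, from 84.1, 91.0 and 89.3 CPM to 78.8, 74.9 and 73.2 CPM. The groups did not overlap, at means of 88.1 ± 3.58 and 75.6 ± 2.87 (SD, n = 3), and the log2 difference was -0.22 ± 0.05 (SE, 95% interval -0.34 to -0.10) with an adjusted p of 0.0352 by edgeR. The call was lost with scaling by library total alone (-0.16, adjusted p = 0.117) and on leaving out any library but SW-138 replicate 2 (adjusted p of 0.0405 to 0.141 over the 6, log2 difference -0.25 to -0.19). SRP14 has a short mRNA of 1077 bases, and in the shortest 10% of the tested protein-coding genes (207 to 1467 bases) 252 of 1332 were lower and 12 higher, with a median log2 difference of -0.16. With the trend over transcript length removed, SRP14 stood at -0.089 with an adjusted p of 0.417. Against its partner within a library, SRP14 stood at 56.3, 58.9 and 55.6 CPM per 100 CPM of SRP9 with SW-113 and 50.6, 48.6 and 50.4 with SW-138.

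SRP19 helps assemble the S domain, SRP54 is the GTPase that binds signal sequences, and SRP68 is a large subunit bound to the RNA beside SRP72. SRP54 (chr14:34981957-35029567, plus strand) stood at 58.2, 57.8 and 57.6 CPM with SW-113 and 56.8, 57.7 and 56.0 CPM with SW-138, a log2 difference of -0.027 ± 0.047 (SE, 95% interval -0.13 to 0.077, adjusted p = 0.787). SRP68 (chr17:76038775-76072653, minus strand) stood at 79.6, 80.1 and 87.3 CPM against 74.3, 83.0 and 82.1, a log2 difference of -0.046 ± 0.061 (95% interval -0.18 to 0.089, adjusted p = 0.704). SRP19 (chr5:112861188-112898371, plus strand) stood at 26.5, 27.7 and 28.8 CPM against 25.4, 25.1 and 26.9, a log2 difference of -0.10 ± 0.062 (95% interval -0.24 to 0.036, adjusted p = 0.368). The groups overlapped in all 3 genes. SRP19 shares 21993 bases of its span with REEP5 on the opposite strand, at a mean of 87.9 CPM, so its counts are uncertain if strand was not used.

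**Figure D3:**
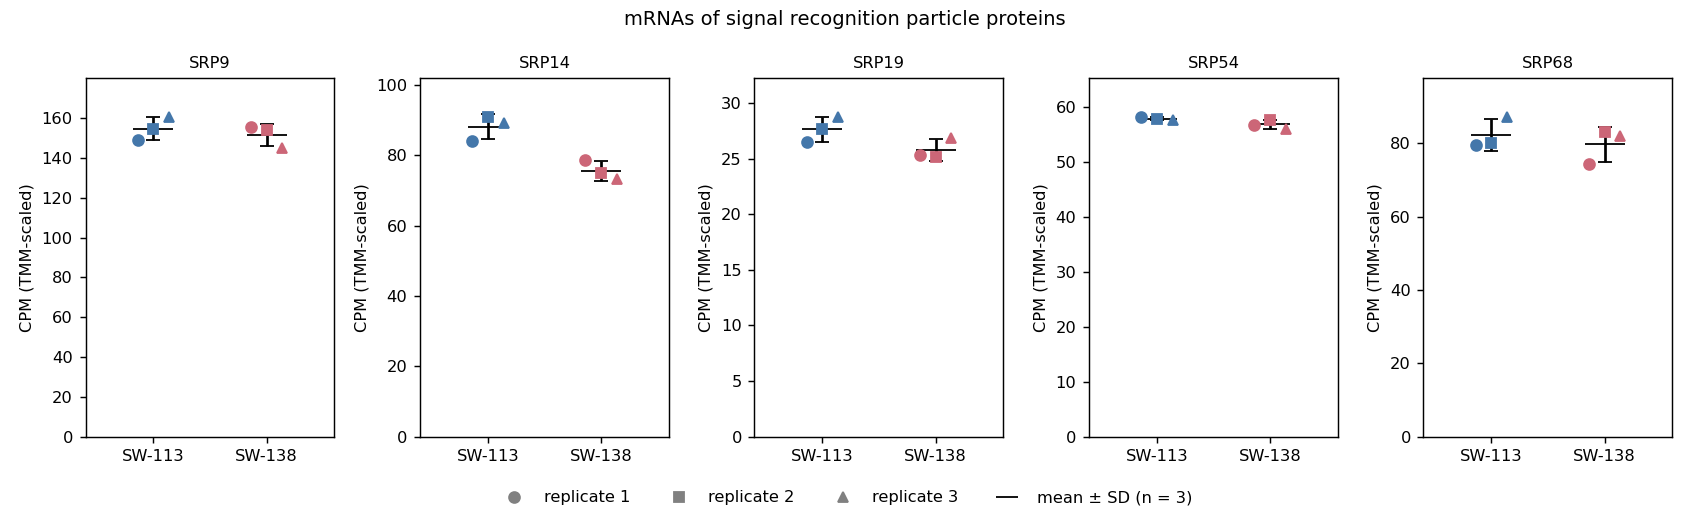
CPM with TMM-scaled library totals (vertical axes from 0) of SRP9, SRP14, SRP19, SRP54 and SRP68 in each library, with the mean and SD of 3 libraries per compound. The groups are apart for SRP14 (84.1 to 91.0 against 73.2 to 78.8 CPM) and overlap for the other 4 genes.

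Counts of the protein mRNAs were also set against those of 7SL. SRP54 stood at 0.826, 0.792 and 0.925 counts per 1000 counts of the 7SL family with SW-113 and 1.71, 1.36 and 1.21 with SW-138, and SRP14 at 1.19, 1.25 and 1.43 against 2.37, 1.77 and 1.58. Neither ratio overlapped between groups, and both follow from the difference in 7SL.

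Of the 13 rows, 12 passed the filter on low counts, and the row named RN7SL2 did not. Of the 12, 2 lay past the threshold of the fit over all tested genes, RN7SL1 and SRP14, both lower. Of all tested genes 6.82% passed, 4.06% lower and 2.76% higher (8.06% of protein-coding genes). RN7SL1 was chosen for its difference, so its place there is a description and nothing is read from this count. All 12 had a log2 difference below 0, beside 8194 of all 16905 tested genes. RN7SL1, RMRP and RPPH1 each hold 2 overlapping rows here, so the 12 rows are not separate genes. RN7SL1 is also among them, so nothing is read from their shared direction. The median was -0.29 over the 7 Pol III rows and -0.046 over the 5 protein rows, beside 0.0074 over all tested genes. In 4 of the 12 (RN7SL1, RN7SK, the main row of RMRP, and SRP14) every SW-113 library was above every SW-138 library in CPM, as in 15.4% of all tested genes; groups that do not overlap in either direction were 27.9%. The direction of small differences rested on the scaling: with library totals alone SRP9 (0.035), SRP54 (0.038), SRP68 (0.018) and the main row of RPPH1 (0.0085) were above 0, where the median of all tested genes was 0.071.

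**Figure D4:**
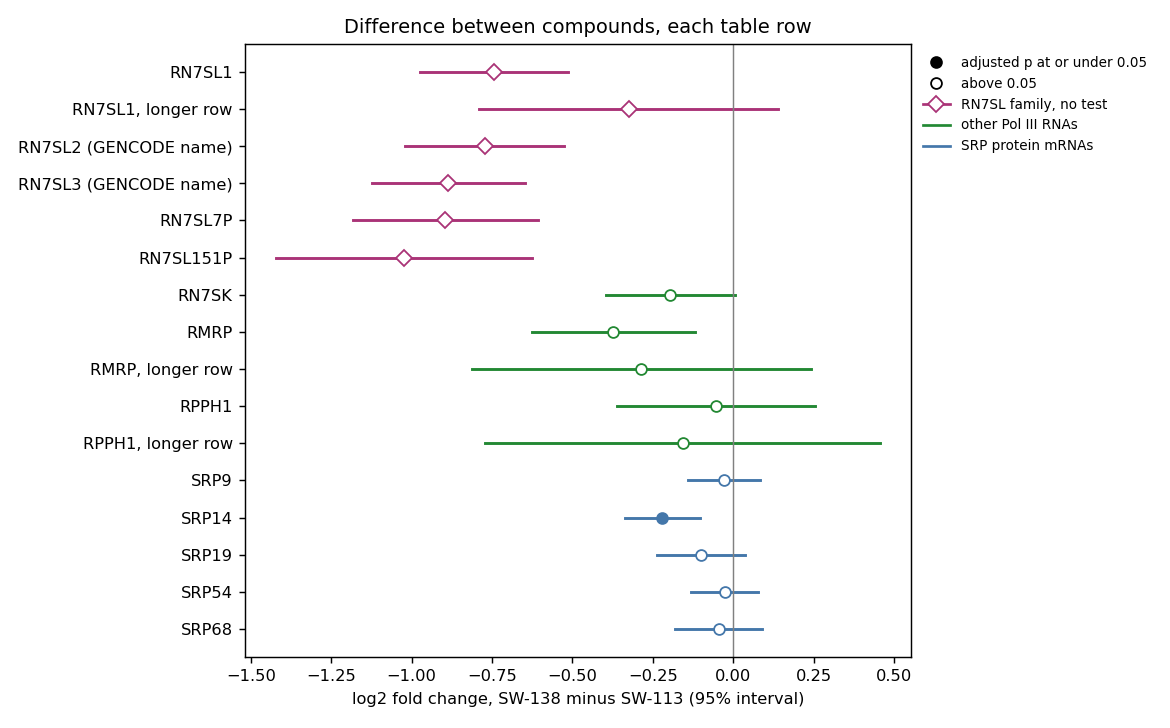
Log2 fold change, SW-138 minus SW-113 (horizontal axis), with its 95% interval for each row of the 7SL copies, the other Pol III RNAs and the SRP protein mRNAs. Filled circles have an adjusted p at or under 0.05 and diamonds mark the 7SL copies, given without a test. The intervals of the 7SL copies show spread only and are not read against 0. The 7SL copies lie between -1.02 and -0.74, except the second RN7SL1 row at -0.33.

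Protein genes of the same pathways were taken from lists of partners. Together they held 88 tested genes outside the named rows, of which 2 were higher and 5 lower. That is 7.95%, beside 8.06% of protein-coding genes and 6.82% of all tested genes. The same shares stand beside the counts of single lists below. Of the remaining SRP and receptor subunits, SRP72 (-0.053 ± 0.051, SE) and the receptor subunit SRPRB (0.071 ± 0.066) were tested and did not pass in edgeR, with adjusted p of 0.607 and 0.571; 0 had an unadjusted p under 0.05, and 0 passed in DESeq2 or limma-voom.

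Among 23 genes of the translocon that takes over the nascent chain and of the signal peptidase that cleaves it, 2 passed, both lower, at a median of 0.053. They were SEC61G and SEC61B, the small subunits of the SEC61 channel. SEC61G went from 46.8, 38.9 and 45.2 CPM to 33.9, 32.9 and 30.0 CPM, a log2 difference of -0.43 ± 0.08 (SE, adjusted p = 0.0110 by edgeR). It was not called without SW-113 replicate 1 (adjusted p = 0.0517), without SW-113 replicate 3 (0.0667) or with the length trend removed (-0.24, adjusted p = 0.128). SEC61B gave -0.31 ± 0.08 (adjusted p = 0.0460), a call lost on leaving out any library but SW-138 replicate 2 (-0.36 to -0.23 over the 6), with upper-quartile scaling (-0.30) or library totals alone (-0.25), and with the length trend removed (-0.089).

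Of 7 proteins of the 7SK particle and P-TEFb 0 passed in edgeR, 0 at an unadjusted p under 0.05, and 0 in DESeq2 or limma-voom, at a median of 0.021. The smallest p-values were those of CCNT2, a cyclin of P-TEFb (0.13 ± 0.06, SE, adjusted p = 0.261), and HEXIM1, the inhibitor that 7SK brings to the kinase (-0.095 ± 0.058, adjusted p = 0.376). Of 10 tested proteins of RNase P and RNase MRP, 1 passed, RPP21, which was lower, at a median of -0.16. RPP21, a subunit of RNase P, went from 16.7, 18.1 and 17.4 CPM to 13.3, 15.5 and 13.7 CPM, a log2 difference of -0.30 ± 0.08 (SE, adjusted p = 0.0487). The call was lost on leaving out any library but SW-138 replicate 2 (-0.32 to -0.25 in those 5 fits), with each of 4 other scalings (-0.29 to -0.23) and with the length trend removed (-0.072, adjusted p = 0.598).

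Of 18 subunits of Pol III, 1 passed, CRCP, which was higher, at a median of -0.053. CRCP went from 28.4, 28.3 and 29.4 CPM to 33.9, 33.1 and 35.2 CPM, a log2 difference of 0.25 ± 0.06 (SE, adjusted p = 0.0249), and was not called on leaving out any library but SW-138 replicate 2 (adjusted p of 0.0674 to 0.0954 in those 5 fits).

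Of 19 Pol III transcription factor genes and the repressor MAF1, SNAPC1 was higher and GTF3C6 and GTF3A lower, at a median of -0.022. SNAPC1 encodes a subunit of the complex that binds the upstream promoter element of genes such as RN7SK, RMRP and RPPH1. It went from 42.1, 46.6 and 48.8 CPM to 63.3, 62.2 and 63.8 CPM, a log2 difference of 0.46 ± 0.06 (SE, adjusted p = 0.00319 by edgeR). GTF3C6, a subunit of TFIIIC, which binds the internal promoters of tRNA genes, went from 36.1, 33.9 and 36.2 CPM to 26.9, 24.8 and 25.5 CPM, at -0.46 ± 0.06 (adjusted p = 0.00298). GTF3A, the factor for 5S ribosomal RNA genes, went from 48.5, 52.1 and 48.6 CPM to 39.5, 38.6 and 39.5 CPM, at -0.34 ± 0.05 (adjusted p = 0.00576). The groups did not overlap in any of the 3 genes, and each passed under every alternative run for it. Of 9 proteins that bind or process Pol III transcripts 0 passed in edgeR, 1 at an unadjusted p under 0.05, and 0 in DESeq2 or limma-voom. Their median was -0.0041, the smallest p-values being those of SSB, the La protein (-0.13 ± 0.05, adjusted p = 0.183), and EXOSC10, a nuclear exosome nuclease (0.11 ± 0.05, adjusted p = 0.242).

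**Figure D5:**
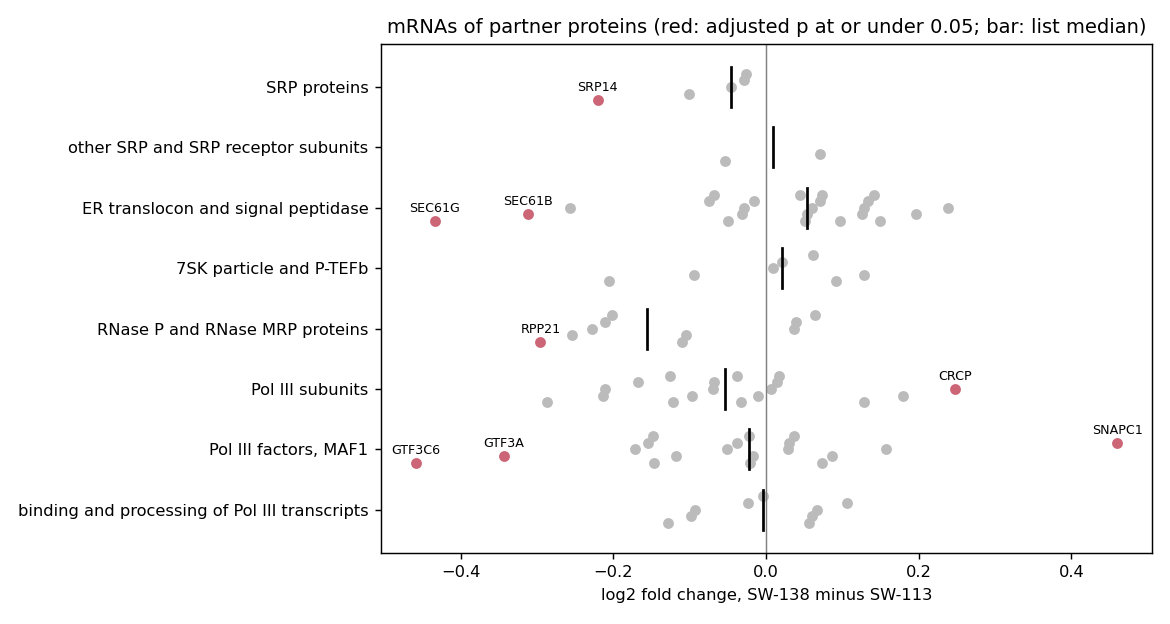
Log2 fold change, SW-138 minus SW-113 (horizontal axis), of each tested gene in the SRP protein rows and the partner lists, 1 point per gene, with the median of each list as a bar and genes past the threshold in red and named. Among the lists drawn, medians lie between -0.16 (RNase P and RNase MRP proteins) and 0.053 (translocon and signal peptidase), and the 3 factors SNAPC1, GTF3C6 and GTF3A stand farthest out with SEC61G.

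The genes most like RN7SL1 over the 6 libraries, by Pearson's r of log2(CPM + 0.5) among 9489 genes with a mean of 10 CPM or more, were RHOF (0.998), PRDX2 (0.998), CARS2 (0.997), GEMIN6 (0.997) and TIMMDC1 (0.996). Their log2 differences lay between -0.40 (RHOF) and -0.19 (TIMMDC1). The genes most like RN7SK among 9493 were CETN3 (0.999), NUBP1 (0.994), CTAG1B (0.991), NDUFA13 (0.990) and ITGB1P1 (0.987). Their log2 differences lay between -0.175 (NDUFA13) and -0.055 (CETN3), except for the processed pseudogene ITGB1P1, at -1.17 ± 1.62 (SE). RN7SL1 itself had an r of 0.997 with RN7SL2, 0.902 with the main row of RMRP, 0.851 with RN7SK and 0.496 with the main row of RPPH1. With the SRP mRNAs its r was 0.765 (SRP14), 0.722 (SRP19), 0.597 (SRP54), 0.421 (SRP68) and 0.016 (SRP9). These values describe 6 points that share their libraries, their scaling and, for RN7SL1 and RN7SL2, reads. The genes most alike were picked as the highest of all candidates, and how high r runs by chance over so few points was not tested.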

How the data were processed

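Ribosomal RNA was depleted before sequencing, per the labels. The deposited table gives each gene's expected counts in the 6 libraries, estimates of which 10.56% to 11.56% per library were fractional. RSEM 1.3.3, Bowtie2 2.5.4, Trimmomatic 0.39, DESeq2 1.42.0 and GRCh38 appear in the submitters' processing notes, without roles. Annotation version and strand setting are not given in the sources used here. RSEM divides reads among near-identical copies.

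Counts were rounded. The filterByExpr function of edgeR 4.0.16 kept 16905 of 60675 rows, and SW-138 minus SW-113 was tested with the quasi-likelihood test, TMM scaling and no block. P-values were adjusted by Benjamini-Hochberg across these rows, with a threshold of 0.05. It called 1153 genes, 466 higher and 687 lower. Scaling by library total alone gave 71.0% of calls higher, against 40.4%. Standard errors and 95% intervals used limma 3.58.1 (voom). CPM used TMM-scaled totals. The median standard error was 0.09 on the log2 scale. Names, coordinates, lengths and transcripts came from GENCODE 29. Sequences of the 7SL copies are not reported here. The fits were tested on simulated data. R was version 4.3.3.

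The members and partner lists were chosen with earlier results of these data known. Named were the members, rows of their families with a mean of 1 CPM or more, up to 4 list genes past the threshold by smallest p (otherwise the 2 with the smallest p), and the 5 genes most like RN7SL1 and RN7SK. Alternatives were other scalings, filters and tests, a replicate block, leaving out each library, summing families, and removing the trend over transcript length in protein-coding genes.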

Additional observations from a re-analysis of the deposited data

How the results depend on the processing

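Over the alternatives, 46 named genes gave 819 values, of which 729 kept their direction and side of the threshold, 65 lost the call, 11 gained one and 14 changed sign. All genes past the threshold numbered 1153, against 2060 with a filter of 1 count in 1 library, 2363 with the replicate block, 2186 with the block and the length trend removed, and 303 to 1616 on leaving out 1 library. Members past it numbered 2, against 1 with library totals alone, 6 with the 1-count filter (both RN7SL1 rows, RN7SK, both RMRP rows and SRP14), 0 with the length trend removed with or without the block, where only the 5 protein genes were fitted, and 1 to 3 on leaving out 1 library. Genes of all partner lists, small RNAs included, past it numbered 9, against 17 with the 1-count filter, 21 with the block, 14 with the block and the length trend removed, and 4 to 14 on leaving out 1 library. The cause of these shifts was not tested. Where RN7SL1 is part of a member count, it stands there as a description. The share of the 7SL family with SW-113, 6.70%, was 7.77% of the counts of protein-coding genes, beside 4.67% with SW-138, and on leaving out 1 library it ran from 6.50% to 7.01% with SW-113 and from 3.90% to 4.51% with SW-138.

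The signs that changed were of small, uncalled differences. With library totals alone the log2 difference was 0.038 for SRP54, 0.035 for SRP9, 0.018 for SRP68, 0.0085 for the main RPPH1 row, 0.011 for SRP72 and 0.0088 for CETN3. SRP9 was 0.038 with the length trend removed and 0.037 with the block as well. On leaving out 1 library, SRP9 ran from -0.056 to 0.0056 (without SW-138 replicate 3), SRP68 from -0.077 to 0.0043, the main RPPH1 row from -0.21 to 0.11 and its longer row from -0.52 to 0.14, these 3 highest without SW-138 replicate 1. Both RPPH1 rows were also above 0 when SW-113 replicate 2 was left out (0.029 and 0.0065).

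Libraries with the same replicate number are not paired by the labels. Their deviations from the group means correlated at 0.05, 0.19 and 0.04 for replicates 1 to 3. Between libraries of different number the values ran from -0.13 to 0.07. Not every library correlated best with the one of its own number, and whether these libraries share a source was not tested. The block added the main RMRP row to the members called (adjusted p = 0.00950).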

Other observations

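Other small Pol III RNAs gave few or no counts in these libraries. Of 15 rows of other small Pol III RNAs, 1 had counts: BCYRN1, a brain-enriched cytoplasmic RNA of 200 bases, at 1.13 ± 0.298 CPM in the SW-113 libraries and 0.681 ± 0.143 CPM in those of SW-138 (SD, n = 3), which overlapped (log2 difference -0.70 ± 0.30, SE, adjusted p = 0.201 by edgeR). The Y RNAs RNY1, RNY3 and RNY4, the vault RNAs and the U6 rows were listed at 0 in all 6 libraries. By name, 841 rows of Y RNAs (median length 102 bases), 1303 rows of U6 (106 bases) and 6 rows of vault RNAs (100.5 bases) were all listed at 0. These medians are below the read length of 150 bases. Whether RNAs this short could be counted in these libraries was not tested, so a 0 is not read as absence from the cells.

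Small structured RNAs made by RNA polymerase II gave a mixed picture. Of 14 tested, 2 passed (14.3%, beside 6.82% of all tested genes), 1 lower and 1 higher, at a median log2 difference of -0.12. The count was 4 with DESeq2 or robust estimation, 6 with the replicate block, 7 with a filter of 1 count in 1 library and 1 to 4 on leaving out 1 library. SCARNA5, a guide RNA of the Cajal body, fell from 53.7, 49.3 and 49.8 CPM to 34.5, 39.2 and 41.1 CPM (-0.41 ± 0.07, SE, adjusted p = 0.00902 by edgeR), and the groups did not overlap. The SCARNA10 row of 248 bases rose from 0.921 to 2.17 CPM (1.23 ± 0.30, adjusted p = 0.0319), a call lost on leaving out replicate 1 or 3 of either compound (1.07 to 1.14 in those fits). The second SCARNA10 row, of 330 bases, contains the first and held 122.6 and 125.2 CPM (0.03 ± 0.10), so the division of reads between the 2 rows is uncertain. SCARNA5 has 276 bases, and SNORA73B (204 bases, -0.43), SCARNA6 (265 bases, -0.44) and SCARNA13 (275 bases, -0.23) also had negative log2 differences. The groups overlapped for SNORA73B and SCARNA6 and were apart for SCARNA13. RNU12 (664 bases) went the other way, at 0.69 (adjusted p = 0.0541 by edgeR), with the groups apart. SCARNA7 (330 bases) stood at 0.15, the SCARNA2 row of 420 bases at -0.0005 and SNORD3A (699 bases) at -0.25. None of these other rows passed in edgeR, and a part of length was not tested.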
